A study of Rattus norvegicus with 2 samples.

Results

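The genes described here encode splicing factors, hnRNP proteins and snRNP proteins, and their mRNAs were measured after pull-down of the ER protein P180/RRBP1 from rat neurons. They were taken by symbol: every gene of the table named Hnrnp followed by a letter, the Srsf, Sf3a, Sf3b, Snrp, U2af and Prpf genes, and Sf1, Rbfox1 to Rbfox3, Nova1, Nova2, the Ptbp genes, Tra2a, Tra2b and the Srrm genes. This gave 86 members of 25627 genes. Primary cortical neurons of the rat expressed P180 fused to GFP and a biotin tag (P180-GFPbio) or the tagged GFP alone (GFPbio), streptavidin beads collected the tagged protein, and the RNA on the beads was sequenced (RIP-seq). 1 library of each condition was analysed (the P180 library and, as control, the GFP library). Without replicates the differences below compare these libraries, not the conditions, and carry no p-value. Both come from cultures grown in the same medium with no other treatment. Neither the age of the cultures at pull-down nor the delivery of the constructs is stated in the sources used.

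Splicing removes introns from pre-mRNA in the nucleus. The spliceosome is assembled from small nuclear ribonucleoproteins (snRNPs), particles in which a short RNA carries a ring of Sm proteins and a few particle-specific proteins. SR proteins, whose tails are rich in arginine and serine, mostly favour the use of an exon, and many hnRNP proteins, which coat nascent transcripts, mostly oppose it, although both do either depending on where they bind. Neurons add their own regulators, such as Rbfox, Nova, Ptbp2 and Srrm4. These proteins are made in the cytosol and imported into the nucleus, without an ER signal peptide. P180 is a ribosome receptor of the ER membrane, and the pull-down asked which mRNAs stay with it.

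The P180 library held 6298343 counts and the GFP library 8428358. Although deeper, the GFP library detected fewer genes, 9345 against 13407, and 16.6% of its counts came from the 13 mitochondrially encoded genes, against 7.31% in the P180 library. Counts were divided by size factors (the median of the ratios between the libraries), and a gene needed 10 counts, summed over the libraries, to enter the comparison (a tested gene, below). A gene was called higher or lower at a ratio of at least 2-fold, P180 over GFP, with a count of 0 set to a floor of 3 counts. Intervals are 95% exact counting intervals, cover nothing but counting error, and leave out differences between cultures and between pull-downs. Reads copied during amplification are not separate molecules. Where counts include such copies, the intervals are too narrow even for counting error. Pairs of counts are given with the P180 library first and the GFP library second, followed in brackets by the log2 ratio and its interval. Rrbp1 itself had 2541 and 1334 counts (1.41, 1.32 to 1.51). The cells of the P180 library carried a P180 construct, and whether reads of its transcript are among these counts was not tested. The GFP and tag sequence, counted as a gene of its own (the tag, below), had 63981 and 190058 counts (-1.09, -1.10 to -1.08). Markers of neurons were at like levels in both libraries, with 1 of 10 higher and 1 lower and a summed level of 7327 and 7888 CPM (counts scaled to a fixed library total). Those of other cell types were not, in a comparison where 40.6% of all genes tested were higher and 19.9% lower. At 0 in the GFP library were 20.4% of all genes tested. Of 10 astrocyte markers 8 were higher and none lower (9777 and 2358 CPM in sum). Of 8 markers of dividing cells 6 were higher and 1 lower (721 and 157 counts). Cdk1, Mki67, Ccnb1 and Cdc20 of these were at 0 in the GFP library. Of 7 tested oligodendrocyte markers 4 were higher and 1 lower (3896 and 2483 counts over the list). Sox10 and Mbp were at 0 in the GFP library, and Mog, which was not tested, was at 0 in both libraries. The 8 microglial markers held 86 and 0 counts. Averages of 100 or more scaled counts were reached by 2 markers of dividing cells and by 0 of microglia. The part of all these other cell types in the values below was not tested.

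Most splicing genes lay within 2-fold of equal between the libraries. Of the 86 members 83 had the minimum count and 47 of these were between the lines. Higher in the P180 library were 20 (24.1%), where 40.6% of all 11468 genes tested were higher. In the other direction 16 members (19.3%) were lower, beside 19.9% of all genes. The median log2 ratio of the members was 0.06 and that of all genes 0.45. Scaling by total counts, or by total counts without mitochondrial genes and the tag, took the members' median below 0, to -0.01 and -0.18, while that of all genes stayed above it, at 0.39 and 0.21. The second of these scalings moves every log2 ratio by -0.24, and under it 13 members were higher and 24 lower. With plain totals 15 were higher and 18 lower. In bulk RNA of this kind, a transcript held more by P180, more cells that make it and more of it per cell cannot be told apart.

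The members were read more deeply than genes at large. A tested member had a median of 380 and 683 counts, whereas a tested gene had 117 and 153. Only 4 of the 83 members (4.82%) were at 0 in the GFP library, against 20.4% of all genes, and a gene at 0 there is called higher by construction. When only genes averaging 100 or more scaled counts were kept, 11 of 70 members (15.7%) were higher and 13 (18.6%) lower, beside 22.8% and 22.6% of all genes at that level. The medians of both sets were then near 0, at -6.02e-05 for the members and -0.03 for all genes. The members together made up 0.814% of all P180 counts (95% exact binomial interval 0.807 to 0.821) and 0.919% of all GFP counts (0.913 to 0.926). Across the 83 members the log2 ratio was only loosely related to the level, with Pearson's r of -0.31 and Spearman's rho of -0.14 against the log2 mean scaled count. These are descriptions across genes of the same pair of libraries, and the mean scaled count contains both terms of the ratio.

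**Figure D1:**
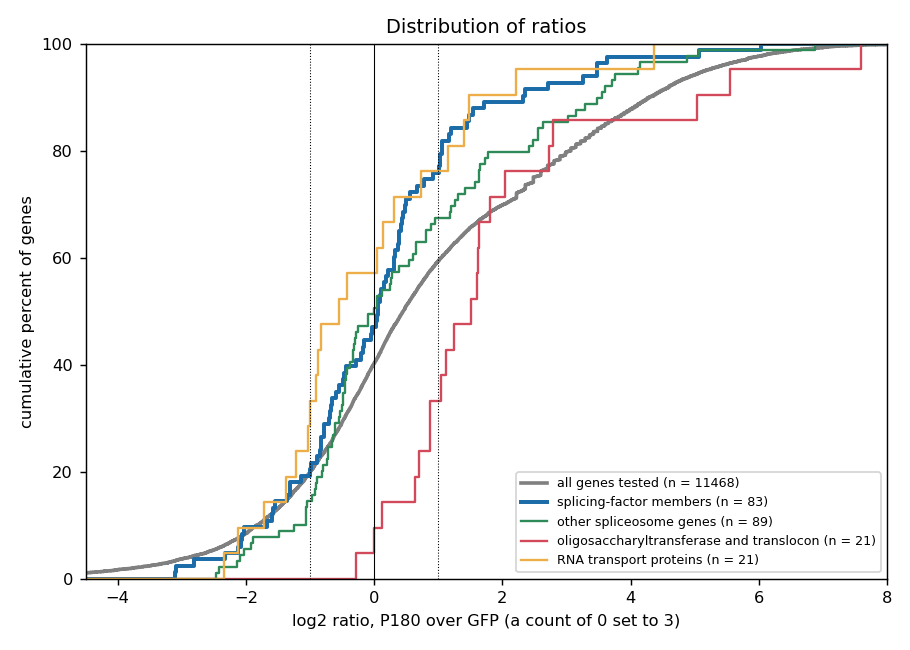
Cumulative percent of genes (vertical axis) against the log2 ratio of scaled counts, P180 over GFP (horizontal axis), for all 11468 genes tested, the 83 splicing members and 3 other lists; dotted lines mark 2-fold. The curve of the members runs above that of all genes to the right of 0. Past 2-fold higher lay 24.1% of the members, beside 40.6% of all genes. At its median (1.51) the curve of oligosaccharyltransferase and translocon genes lies to the right of both. At its upper quartile (2.04) it lies to the left of the curve of all genes (2.48).

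**Figure D2:**
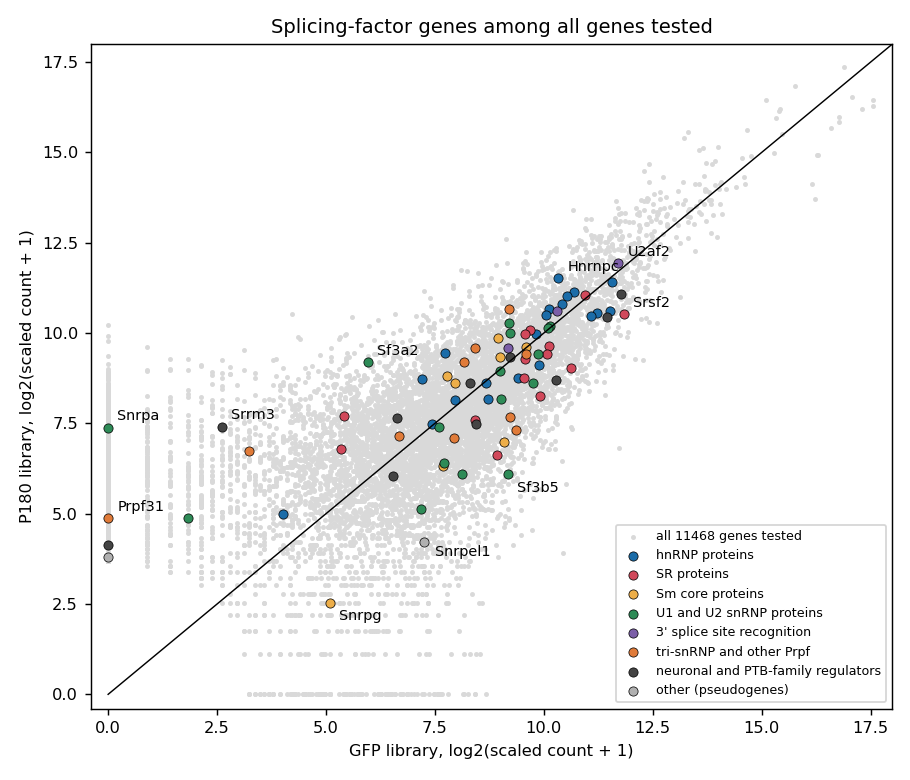
Level of each gene in the GFP library (horizontal axis) and the P180 library (vertical axis), both as log2 of the scaled count plus 1, with all 11468 genes in grey and the members coloured by role. Most members lie near the line of equal level in the upper middle of the cloud, and 4 of them, Snrpa among them, sit on the left edge at 0 in the GFP library.

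The hnRNP proteins package nascent transcripts, and 16 of their 20 genes lay within 2-fold. All 20 were tested, with log2 ratios from -0.89 to 1.71 and a median of 0.17 (-0.07 without mitochondrial and tag counts). 4 (20%) were called higher and 0 lower, beside 40.6% and 19.9% of all genes tested. However, Hnrnpk and Hnrnpa1 passed 2-fold lower in the scaling without mitochondrial and tag counts. Hnrnpc, whose product binds uridine-rich stretches of introns, had 2502 and 1525 counts (1.20, 1.10 to 1.29), but fell just short of 2-fold in that scaling. Hnrnpa0, an intronless relative of the A/B family, had 586 and 250 counts (1.71, 1.50 to 1.93). Hnrnpdl, close in sequence to Hnrnpd, had 357 and 172 (1.54, 1.27 to 1.81). Hnrnpul2 was barely past the line on 26 and 18 counts (1.01, 0.09 to 1.97), and short of it with TMM factors and both total-count scalings.

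The best-read hnRNP genes were on both sides of equality. Hnrnpl, which binds CA repeats, had 2309 and 3580 counts (-0.15, -0.23 to -0.07). Hnrnpk, a KH-domain protein that binds cytosine-rich RNA, had 1330 and 3441 (-0.89, -0.98 to -0.80), the lowest ratio of the group. Hnrnpa2b1, which also carries certain mRNAs into neurites, had 1262 and 2838 (-0.69, -0.78 to -0.59). Its relative Hnrnpa1 stood at -0.78 on 469 and 1126 counts. Against these 3, Hnrnpa3 was on the other side (1377 and 1310 counts, 0.55), as were the scaffold-attachment protein gene Hnrnpu (1757 and 1736, 0.50), Hnrnpm (0.45), Hnrnpab (0.44), Hnrnpd (0.39) and Hnrnpul1 (0.15, which crosses 0 without mitochondrial and tag counts). Hnrnph1 (-0.59), Hnrnpf (-0.65) and Hnrnpr (-0.55) were moderately lower without reaching 2-fold. For Hnrnph2, Hnrnph3 and Hnrnpll the counting interval spanned 0.

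The SR proteins and their relatives leaned towards the GFP library. Of 16 members 14 were tested, and their median log2 ratio was -0.57 and their range -2.33 to 2.33. 4 (28.6%) were called lower and 2 (14.3%) higher, beside 19.9% and 40.6% of all genes tested. Srsf2, which recognises exonic enhancers and is among the best-read members of all, had 1250 and 4345 counts (-1.32, -1.41 to -1.22). Srsf7 had 441 and 1855 (-1.59, -1.74 to -1.44). Srsf5 had 257 and 1143 (-1.67, -1.87 to -1.47). These 3 are canonical SR proteins, and they were 2.49-, 3.01- and 3.18-fold lower in that order. Srsf10, an SR-related protein that represses splicing when it is dephosphorylated, was the lowest, at 82 and 577 counts (-2.33, -2.68 to -1.997). On the other side stood Srsf4, a canonical SR protein of the same branch as Srsf5 and Srsf6, with 176 and 49 counts (2.33, 1.86 to 2.81), and Srsf9 with 92 and 47 (1.45, 0.93 to 1.99). Srsf1, a founding member of the family that also works in the cytoplasm, lay between, at 577 and 1280 counts (-0.67, -0.81 to -0.52), as did Srsf6 (-0.78), Tra2a (-0.83), Tra2b (-0.47) and Srsf11 (-0.29). Srsf6 and Tra2a passed 2-fold lower without mitochondrial and tag counts. The shuttling SR protein gene Srsf3 (0.38) and the large SR-related nuclear matrix proteins Srrm1 (0.38) and Srrm2 (0.10, on 1787 and 2326 counts) were close to equal, with Srrm2 on the other side of 0 in that scaling. As a share of all counts the group took 0.129% of the P180 library (0.126 to 0.132) and 0.201% of the GFP library (0.198 to 0.205). Srsf12 (1 count in the P180 library) and Srsf8 (0 in both libraries) were not tested.

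The Sm proteins form the ring that sits on the RNA of most spliceosomal snRNPs, so they work in fixed proportion, but their mRNAs did not share a ratio. 5 of the 8 had log2 ratios from 0.04 to 1.05. 3 (37.5%) were called lower and 1 (12.5%) higher, beside 19.9% and 40.6% of all genes tested. Snrpb, which encodes the B and B' proteins, had 380 and 256 counts (1.05, 0.82 to 1.29), just past 2-fold and short of it with total counts. Snrpn, which encodes the B/B'-like protein of brain, had 791 and 582 (0.93, 0.77 to 1.08). Snrpd1 (667 and 909 counts, 0.04), Snrpd3 (542 and 603, 0.33) and Snrpd2 (332 and 291, 0.67) stayed under 2-fold. Snrpf, in contrast, had 106 and 643 counts (-2.12, -2.43 to -1.82). Snrpe had 67 and 241 (-1.36, -1.78 to -0.97), and Snrpg 4 and 39 (-2.80, -4.75 to -1.33). The lower 3 are the E, F and G proteins, which join the ring as a preformed subcomplex. A second row of the table, Snrpg.1, is outside the naming rule and was looked up after the values were seen. Snrpg.1 had 38 and 527 counts (-3.31, -3.83 to -2.84). RefSeq annotates Snurf over the same span as Snrpn, and Snurf was not analysed here, so the counts of Snrpn may include reads from that overlapping gene.

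Among the proteins specific to the U1 and U2 snRNPs the ratios had the widest full range, from -3.10 to 6.03 on the log2 scale. The upper end rests on a count of 0 set to the floor. Between quartiles they ran from -1.18 to 0.84, and those of the Sm genes more widely, from -1.55 to 0.74. Of 16 members 4 (25%) were higher and 5 (31.25%) lower, beside 40.6% and 19.9% of all genes tested. Their median was -0.12. The U1 protein genes Snrpa and Snrpc were both higher. Snrpa, whose product binds a stem-loop of U1 RNA, had 140 and 0 counts. With the 0 set to the floor it was 65.2-fold higher (log2 6.03, lower limit of the interval 5.71). Snrpc, whose product helps U1 hold the 5' splice site, had 24 and 3 counts (3.48, 1.76 to 5.86). Of the relatives of yeast U1 proteins, Prpf39 was lower on 29 and 170 counts (-2.07, -2.69 to -1.49) and Prpf40b (-0.20) stayed within 2-fold.

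The genes of a U2 complex did not share a ratio. SF3A is a trimer, and Sf3a2 stood apart from its partners. Sf3a2 had 498 and 73 counts (3.25, 2.90 to 3.63), Sf3a3 had 330 and 1015 (-1.14, -1.32 to -0.96) and Sf3a1 had 243 and 606 (-0.84, -1.06 to -0.62). The intervals of Sf3a1 and Sf3a3 overlapped, and Sf3a1 too was past 2-fold lower (-1.07) without mitochondrial and tag counts. SF3B, which clamps the branch point of the intron, held genes on either side. Level or higher were Sf3b3 at 1044 and 699 counts (1.06, 0.92 to 1.20; under 2-fold with total counts), Sf3b1, the subunit around the branch point, at 867 and 709 (0.77, 0.63 to 0.92), Sf3b2 at 949 and 1292 (0.04, -0.09 to 0.16) and Sf3b4 at 996 and 1338 (0.06, -0.06 to 0.18). Sf3b5 and Sf3b6, a pair of its small subunits, were lower. Sf3b5 had 57 and 684 counts (-3.10, -3.52 to -2.71), the lowest ratio of any tested member, and Sf3b6, which lies next to the branch point adenosine, had 57 and 326 (-2.03, -2.47 to -1.62). Phf5a, another small subunit that the naming rule leaves out and that was added after its value was seen, lay between, with 168 and 296 counts (-0.33, -0.62 to -0.06). Of the proteins bound to U2 RNA itself, Snrpa1 was lower (71 and 245 counts, -1.30, -1.71 to -0.92) and Snrpb2 level (421 and 603, -0.04, -0.22 to 0.15).

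The 3 tested genes for recognition of the 3' splice site lay close together. U2af2, which binds the polypyrimidine tract, had 3290 and 3950 counts (0.22, 0.15 to 0.29). U2af1, which reads the terminal AG of the intron, had 1318 and 1484 (0.31, 0.20 to 0.42). Sf1, the branch point binding protein that hands over to U2, had 654 and 683 (0.42, 0.26 to 0.58). All lay within 2-fold and their intervals overlapped, although U2af2 crosses to the other side of 0 without mitochondrial and tag counts. U2af1l4 was at 0 in both libraries.

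The genes named Prpf, after yeast precursor RNA processing mutants, encode proteins of the tri-snRNP, the Prp19 complex and later steps, and leaving aside the U1 relatives they had a median of 0.75. Over those averaging 100 or more scaled counts it was 0.15, under the 0.33 of the Sm proteins and the 0.31 of 3' splice site recognition at that level. Of 10 tested genes 5 (50%) were higher and 2 (20%) lower, beside 40.6% and 19.9% of all genes tested. Prpf19, the ubiquitin ligase that names the Prp19 complex, had 1375 and 692 counts (1.47, 1.34 to 1.61). Prpf8, the scaffold at the catalytic centre, had 495 and 338 (1.03, 0.83 to 1.24), and Prpf38b had 650 and 404 (1.17, 0.99 to 1.35). Without mitochondrial and tag counts both lay under 2-fold, and Prpf8 did so with total counts too. Prpf4 and Prpf31, proteins of the particle that pairs U4 with U6 RNA, rested on few counts in the GFP library. Prpf4 had 89 and 10 (3.64, 2.69 to 4.75). Prpf31 had 24 and 0, 11.2-fold higher with the 0 set to the floor (lower limit of the interval 3.07 on the log2 scale). Prpf3, the partner of both, had 119 counts in both libraries (0.48, 0.10 to 0.86). Lower were Prpf38a, a factor of spliceosome activation, with 133 and 777 (-2.06, -2.34 to -1.80), and Prpf4b, a kinase of tri-snRNP proteins, with 173 and 702 (-1.54, -1.79 to -1.30). Prpf6, which bridges U5 to the rest of the tri-snRNP, was near level on 575 and 909 counts (-0.18, -0.33 to -0.03), and Prpf18, a factor of the second catalytic step, stood at -0.84 and was past 2-fold lower (-1.08) without mitochondrial and tag counts.

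Regulators known from neurons, with the PTB family, had a median log2 ratio of -0.20. Of 10 genes 3 (30%) were higher and 1 (10%) lower, beside 40.6% and 19.9% of all genes tested. The Rbfox genes encode proteins that bind a short intronic motif next to neuronal exons. Rbfox2 had 1831 and 4154 counts (-0.70, -0.78 to -0.62), Rbfox1 had 1184 and 3305 (-0.999, -1.10 to -0.90) and Rbfox3, the neuronal marker NeuN, had 334 and 375 (0.32, 0.10 to 0.53). Rbfox1 lay on the line of 2-fold and just short of it, and was past it with TMM factors and with both total-count scalings. Of the Nova genes, whose products were found as antigens of a neurological autoimmune syndrome, Nova1 was level on 541 and 709 counts (0.09, -0.07 to 0.26) and Nova2 was at 170 and 116 (1.03, 0.68 to 1.39), under 2-fold with both total-count scalings.

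The PTB family and the microexon activators each held genes on either side. Ptbp1, a repressor of neuronal exons that is typical of progenitors and glia, had 354 and 1468 counts (-1.57, -1.74 to -1.40). Of the markers of astrocytes and of dividing cells, 8 of 10 and 6 of 8 were higher in the P180 library, beside 40.6% of all genes tested. The part of those cells in the value of Ptbp1 was not tested. Ptbp2, the paralogue that replaces it as neurons mature, had 149 and 412 (-0.98, -1.27 to -0.71), and like Rbfox1 was past 2-fold lower with TMM factors and with both total-count scalings. Ptbp3 had 14 and 0 counts. With the 0 set to the floor it was 6.52-fold higher, with a lower limit of 2.21 on the log2 scale. Srrm3 and Srrm4 both promote the inclusion of very short neuronal exons. Srrm3 had 143 and 6 counts (5.06, 3.90 to 6.53), whereas Srrm4 had 55 and 108 (-0.49, -0.99 to -0.01). The 7 genes of this group averaging 100 or more scaled counts had a median of -0.70.

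**Figure D3:**
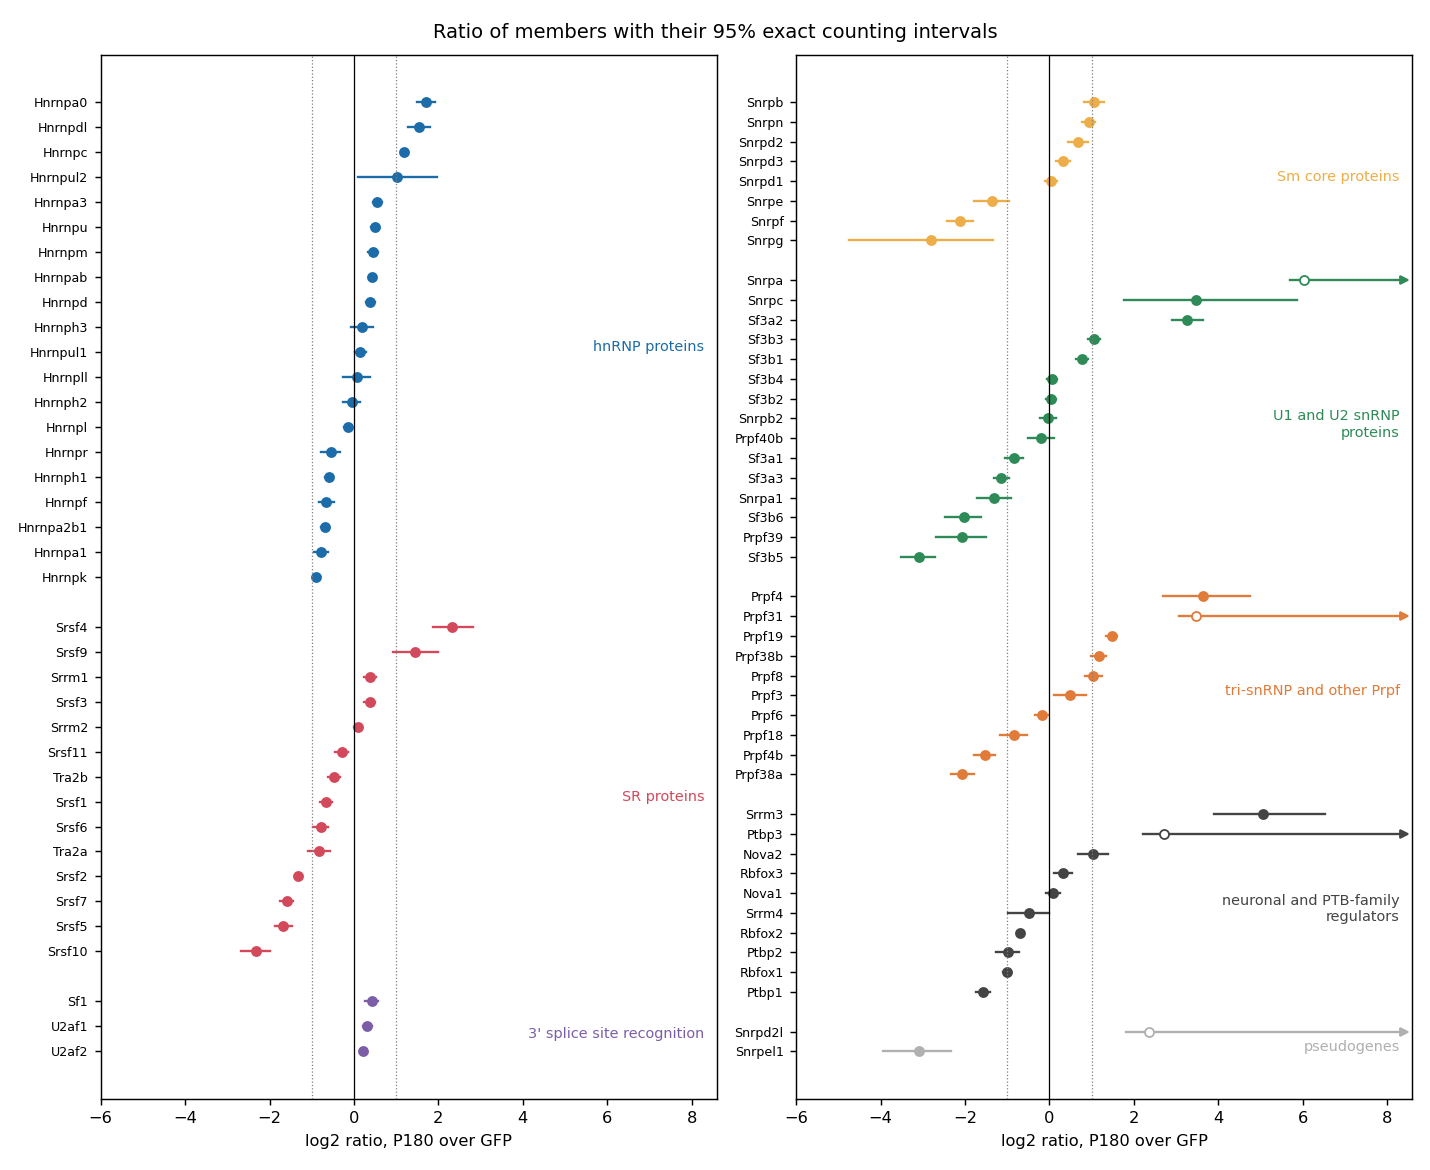
Log2 ratio of scaled counts, P180 over GFP (horizontal axis), for 82 of the 83 tested members, grouped by role; bars are 95% exact counting intervals, open points with arrows are genes at 0 in the GFP library drawn at the floor of 3 counts, and dotted lines mark 2-fold. The hnRNP genes lie within -0.89 to 1.71 and, in this scaling, none is past 2-fold lower, whereas the U1 and U2 snRNP genes run from Sf3b5 at -3.10 to Snrpa at 6.03.

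Both remaining members are annotated as pseudogenes by RefSeq. Snrpel1, a copy of Snrpe, had 15 and 178 counts (-3.09, -3.95 to -2.33), and Snrpd2l had 11 and 0. Since the authors dropped reads with several equally good positions, counts of such copies and of their parent genes are uncertain. Over all 83 tested members the counting interval lay above 0 for 38, below 0 for 36 and across it for 9. It lay wholly past 2-fold for 13 in each direction, which 36.2% of all genes did upwards and 14.7% downwards.

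Shares within a family do not depend on the scaling of the libraries, and several turned over between them. The families were chosen after the values were seen. Of the counts of Srsf3 and Srsf7, a closely related pair, Srsf3 took 67.3% in the P180 library (64.8 to 69.8, an exact binomial interval at 95%) and 34.5% in the GFP library (32.7 to 36.3). Of those of Prpf38a and Prpf38b, Prpf38a took 17.0% (14.4 to 19.8) and 65.8% (63.0 to 68.5). In both pairs the gene with the larger share in one library had the smaller share in the other. Srrm3 took 72.2% (65.4 to 78.3) of the Srrm3 and Srrm4 counts in the P180 library but 5.26% (1.96 to 11.1) in the GFP library, where the pair had 114 counts in all. Among the SF3A genes, Sf3a2 took 46.5% (43.5 to 49.5) and 4.31% (3.39 to 5.39), and Srsf4 took 22.0% (19.2 to 25.03) and 2.36% (1.75 to 3.11) of the counts of Srsf4, Srsf5 and Srsf6.

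Some other families kept their proportions and others shifted, and the A/B family of hnRNPs changed its order. Snrpb took 32.5% (29.8 to 35.2) of the Snrpb and Snrpn counts in the P180 library and 30.5% (27.4 to 33.8) in the GFP library, and the intervals overlapped. The same held for Hnrnpl against Hnrnpll, with Hnrnpl at 93.9% and 94.7%, and for Tra2b against Tra2a (80.5% and 76.3%). Rbfox2 took 54.7% (53.0 to 56.4) and 53.0% (51.9 to 54.1) of the Rbfox counts, while Rbfox3 took 9.97% and 4.79%. In the A/B family of hnRNPs, Hnrnpa2b1 took 34.2% (32.6 to 35.7) of the counts in the P180 library and 51.4% (50.05 to 52.7) in the GFP library. Hnrnpa3 took 37.3% (35.7 to 38.9) and 23.7% (22.6 to 24.9), and so had the largest share in the P180 library. Hnrnpa0 took 15.9% and 4.53%, and Hnrnpa1 12.7% and 20.4%. Ptbp1 held the larger part of the PTB counts in both libraries, at 68.5% (64.3 to 72.5) and 78.1% (76.1 to 79.9). Nova2 took 23.9% and 14.1% of the Nova counts, and Srsf9 13.8% and 3.54% of those of Srsf1 and Srsf9. Among the SF3B genes, Sf3b5 took 1.44% and 13.5%, and Sf3b3 26.3% and 13.8%. For Ptbp1 and each of these genes the intervals of the libraries did not overlap, whereas those of Sf3b2 and Sf3b4 did.

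**Figure D4:**
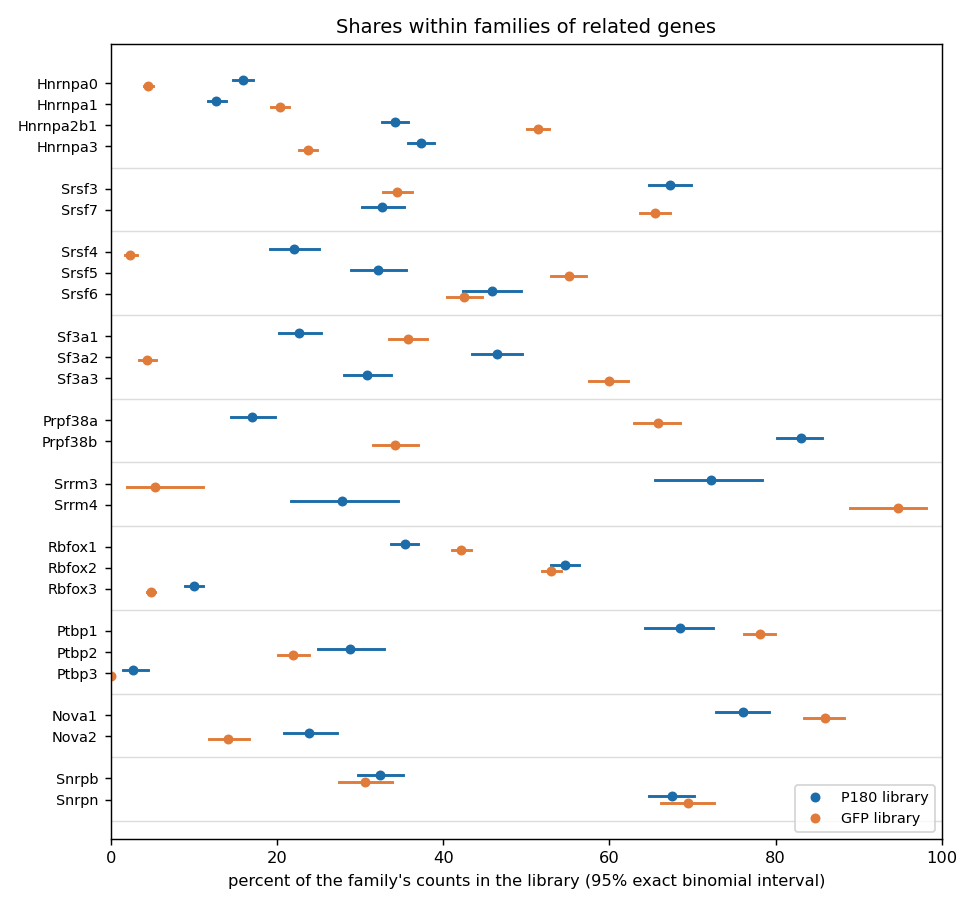
Share of each family's counts taken by each gene in the P180 library (blue) and the GFP library (orange), in percent (horizontal axis), for 10 families separated by grey lines; bars are 95% exact binomial intervals. Srsf3 and Srsf7, Prpf38a and Prpf38b, and Srrm3 and Srrm4 change places between the libraries, whereas the intervals of Snrpb and Snrpn overlap.

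With genes of every tested level kept, spliceosome proteins and splicing regulators outside the naming rule gave a median close to that of the members. Of 91 such genes 89 were tested, and their median log2 ratio was -0.01. Higher were 29 (32.6%) and lower 13 (14.6%), beside 40.6% and 19.9% of all genes. Of all genes averaging 100 or more scaled counts 22.8% were higher and 22.6% lower. Of the 74 of this list at that level 18 (24.3%) were higher and 13 (17.6%) lower, and their median was -0.29. Of the 70 members at that level 15.7% were higher and 18.6% lower, and their median was -6.02e-05. The 5 best-read were the neuronal regulator Celf2 (4452 and 8814 counts, -0.50), the poly(C)-binding protein gene Pcbp2 (2111 and 6085, -1.04), Celf4 (1079 and 6399, -2.09), Son (2243 and 3032, 0.05) and Pcbp1 (2014 and 1607, 0.81). Highest among genes averaging 100 or more scaled counts were Cdc5l of the Prp19 complex (374 and 40 counts, 3.71), Xab2 (184 and 22, 3.55) and Sart3, a recycling factor of U4 and U6 (190 and 30, 3.15). Lowest were the developmental regulator Mbnl2 (270 and 2076 counts, -2.46), the neuronal Elavl2 (165 and 1236, -2.42) and Lsm8 of the U6 ring (62 and 380, -2.13). Snrnp70, the U1 protein that stands beside Snrpa and Snrpc in the particle, was looked up after its value was seen and had 823 and 2722 counts (-1.24, -1.36 to -1.13), the direction opposite to theirs.

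For reference, genes of a route to the ER and genes of other RNA-binding proteins were read in the same way. Of 21 tested genes of the oligosaccharyltransferase and the translocon, which act on proteins entering the ER, 14 (66.7%) were higher and 0 lower. Their median log2 ratio was 1.51. All 21 averaged 100 or more scaled counts, a level at which 22.8% of all genes were higher and 22.6% lower. The best-read genes of this list were Tusc3 (0.87), Sec61a2 (1.24) and Rpn1 (1.13). Of 21 tested genes for RNA transport proteins, 5 (23.8%) were higher and 6 (28.6%) lower, beside 40.6% and 19.9% of all genes. The median of this list was -0.55. Of its 16 genes averaging 100 or more scaled counts 2 (12.5%) were higher and 5 (31.25%) lower, with a median of -0.69. Its best-read genes were Purb (1303 and 4244 counts, -1.22), Pura (-0.55) and the poly(A)-binding protein gene Pabpc1 (-0.87). The difference between the lists was not tested, since 1 library per condition was analysed.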

How the data were processed

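The authors prepared adapted CEL-Seq2 libraries, which read the 3' ends of mRNAs, used STARsolo 2.7.10a to align read 2 to rat assembly mRatBN7 (the tool is also named in the submitters' processing notes), dropped reads with several equally good positions, and deposited raw counts per gene. The sources used do not state the annotation release or whether reads were collapsed by molecular identifier. Isoforms cannot be read from such counts. Another 2 columns of the count table, named as a second P180 and a second GFP library, match none of the samples given here and were used in no step, although their values for the members were seen when the table was inspected, before the families of related genes were chosen. The authors' DESeq2 test needs replicates and was not repeated.

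From the deposited counts, 92 spike-in rows (2 and 9 counts) were left out, and size factors were 0.846 (P180) and 1.18 (GFP). The floor of 3 counts stands for 0.476 CPM (P180) and 0.356 CPM (GFP). Ratio intervals are Clopper-Pearson intervals on a gene's share of counts in the P180 library. Medians add 1 scaled count to both libraries. The members, role groups and lists were chosen with earlier results of these data known. Named were all members but 1, which is not reported here by itself and is counted in the totals, and, of other lists, the best-read genes and those with the highest and lowest ratios, and Snrpg.1, Snrnp70 and Phf5a were added after their values were seen. Alternatives were TMM factors, total counts with and without mitochondrial genes and the tag, size factors without the tag, other count filters, thinning of the GFP library, a floor of 1, 5 scaled counts added, and calls by the whole interval. Symbols of all 86 members matched the RefSeq table of GRCr8, used for annotation only. A planned description by protein features was not run, since protein sequences were not used here. Steps were run in R 4.3.3 (edgeR 4.0.16, for TMM) and in Python 3.11.15, using scipy 1.17.1 for intervals, pandas 2.3.3 and numpy 2.4.6, and were tested on simulated data.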

Additional observations from a re-analysis of the deposited data

How the results depend on the processing

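The scaling without mitochondrial and tag counts changed most: 13 members were higher, the members' median log2 ratio became -0.18, and the medians became -0.068 for hnRNP proteins, -0.80 for SR proteins, -0.055 for Sm proteins, 0.074 for 3' splice site recognition and -0.43 for neuronal and PTB-family regulators. The members' share of counts became 0.888% and 1.13%. All 16 lower calls were kept there and 8 were added. Among genes averaging 100 or more scaled counts, 11 were higher, and the medians of the Prpf group and the neuronal regulators were 0.15 and -0.70. With counts required in both libraries the latter was -0.48. When the whole interval had to pass 2-fold 13 were higher, and 12 of these 13 were also higher without mitochondrial and tag counts. Of the group counts, medians and shares, 90 values under an alternative were classed as near the main value and 14, those above, were not. This class was wide for counts of members. It held the 24 lower members without mitochondrial and tag counts (16 in the main scaling). It also held the 15 higher members with total counts (20 in the main scaling). Of 498 ratios of single members under an alternative 53 left their main interval, 51 of them in the scaling named first, and no called member changed sides of 0. No paired analysis was possible because 1 library of each condition could be mapped to a sample and analysed. Where either library held few counts, as for Snrpc, Snrpg and Srrm3, the interval of the ratio was wide.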
